A study of Drosophila melanogaster with 19 samples.

Results

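The 5 genes studied here act in female-specific splicing and were followed through every deposited column: Sex-lethal (Sxl), female lethal (2) d (fl(2)d), virilizer (vir), sans fille (snf) and transformer 2 (tra2). They were chosen by symbol in the table of Myc-tagged Armitage (Armi) and followed by transcript ID, and they are 5 of the 12013 transcripts that carry a symbol. Results of these data, the 2 Armi substitutions included, were in view when the genes were chosen, so the comparisons of those columns are given as a description, with no test. Each gene has 1 transcript in the tables: FBtr0331258 for Sxl and FBtr0070748 for snf, both on the X chromosome, and FBtr0087647 for fl(2)d, FBtr0072037 for vir and FBtr0089619 for tra2, all on 2R. RefSeq lists 25 transcripts for Sxl, 7 for tra2, 4 for fl(2)d and 1 each for vir and snf, so female and male splice forms of Sxl cannot be told apart here. In RefSeq, vir overlaps Mthfs, tra2 overlaps Blos1 and a scaRNA, and Sxl overlaps mir-4956 and a long noncoding RNA. Reads in the shared stretches cannot be assigned with certainty, since the use of strand in counting is not stated.

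In Drosophila, Sxl is the RNA-binding protein that sets female fate. It directs the splicing of its own transcript and of transformer, and it blocks translation of msl-2, the limiting subunit of male dosage compensation. The proteins Fl(2)d and Vir belong to the complex that writes N6-methyladenosine on mRNA and are needed for Sxl-dependent splicing. Snf is a protein of the U1 and U2 snRNPs that helps Sxl regulate its own transcript, and Tra2 binds with Tra to the doublesex transcript to give the female splice form. In the somatic cells of the ovary, Armi, an RNA helicase, binds precursors of PIWI-interacting RNAs (piRNAs), which Yb and the endonuclease Zucchini (Zuc) help to turn into Piwi-bound small RNAs. Some mRNAs enter this route as well, so the values below measure Armi- or Piwi-bound RNA and not mRNA levels.

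All samples are ovarian somatic cells (OSC), a Drosophila line of ovarian follicle origin. Armi-bound RNA was read by iCLIP, which sequences RNA crosslinked to a protein by UV light, from cells transfected with Myc-Armi D862A, Myc-Armi R949A or Myc-Armi WT (anti-Myc antibody), from cells with Yb RNAi (Yb KD), EGFP RNAi (control KD), and from untreated cells (anti-Armi antibody), with 2 libraries each per the labels. CLIPPARE, which tags the 5′ ends of Armi-bound RNA before RNase digestion, was done after Zuc RNAi (Zuc KD) and EGFP RNAi (control KD), with 2 libraries each. For small RNA bound to Piwi there was 1 library each labelled Yb KD, control KD and untreated. The labels do not say whether endogenous Armi was removed from the transfected cells, nor whether replicates were separate cultures, so p-values measure only the spread between these libraries. For the Myc-Armi iCLIP and for the iCLIP of Yb KD and control KD the tables hold 1 column per condition, so these values are the authors' and have no replicate error.

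Values are RPM, reads scaled per M reads of a library total that the tables do not define. That total was 0.813 to 10.4 M reads per column, and the tables held 12.8 to 63.8% of it. The share held by the table moved with several comparisons: 63.3% for D862A and 63.8% for R949A against 33.2% for WT, 34.2% for Yb KD against 20.5% for control KD in iCLIP, and 54.7% for the library labelled Yb KD against 18.6% for control KD in Piwi small RNA. Most transcripts shifted together in these comparisons, and each ratio is given as deposited and relative to the median of its table, where the distance from the median is taken from log2(RPM + 1), which pulls in the ratios of low transcripts, without knowing which of these reflects the amount bound. Of 7 follicle markers, tj had 1170.4 to 4510 RPM in the 14 columns, while others were lower, such as Fas3 at 3.20 to 38.7 RPM. Of 6 germline markers matched, osk and nos had 1.17 RPM or less and spn-E 80.0 to 303 RPM. Of 5 hemocyte markers matched, Hml had 0.9301 RPM or less, while ush reached 236 RPM, crq 131 RPM, Pxn 122 RPM and srp 107 RPM. The genotype label of the Piwi library labelled Yb KD names the control RNAi, and which label is right was not tested. Both knockdown Piwi libraries also list an anti-Myc antibody, where their protocol describes anti-Piwi. Intervals are 95% and cover counting error only, with no spread between libraries. They treat each read as an independent molecule, which PCR copies are not.

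Sxl, the gene at the head of the group, carried more signal in the Myc-Armi columns than in any other. It had 1135 RPM for D862A, 1477 RPM for R949A and 629 RPM for WT. Endogenous Armi gave 484 RPM in Yb KD, 100.1 RPM in control KD, and 88.1 and 80.3 RPM in the untreated replicates. Thus the 3 Myc-Armi columns came first, Yb KD next, and the control and untreated columns lay within 80.3 to 100.1 RPM. In CLIPPARE, Sxl had 106 and 107 RPM in Zuc KD, against 31.7 and 54.1 RPM in control KD. In Piwi small RNA it had 525 RPM in the library labelled Yb KD, 94.8 RPM in control KD and 33.0 RPM in untreated cells. By rank among the 12013 transcripts, which does not depend on the scale of a column but is not per length, Sxl stood at 70 for D862A, 48 for R949A and 88 for WT. It stood at 90 in Yb KD, 378 in control KD, and 377 and 379 in the untreated replicates. Wild-type Myc-Armi thus gave a different rank for Sxl than endogenous Armi in control KD and untreated cells, but not in Yb KD. The tables were normalized separately and the antibodies differed.

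**Figure D1:**
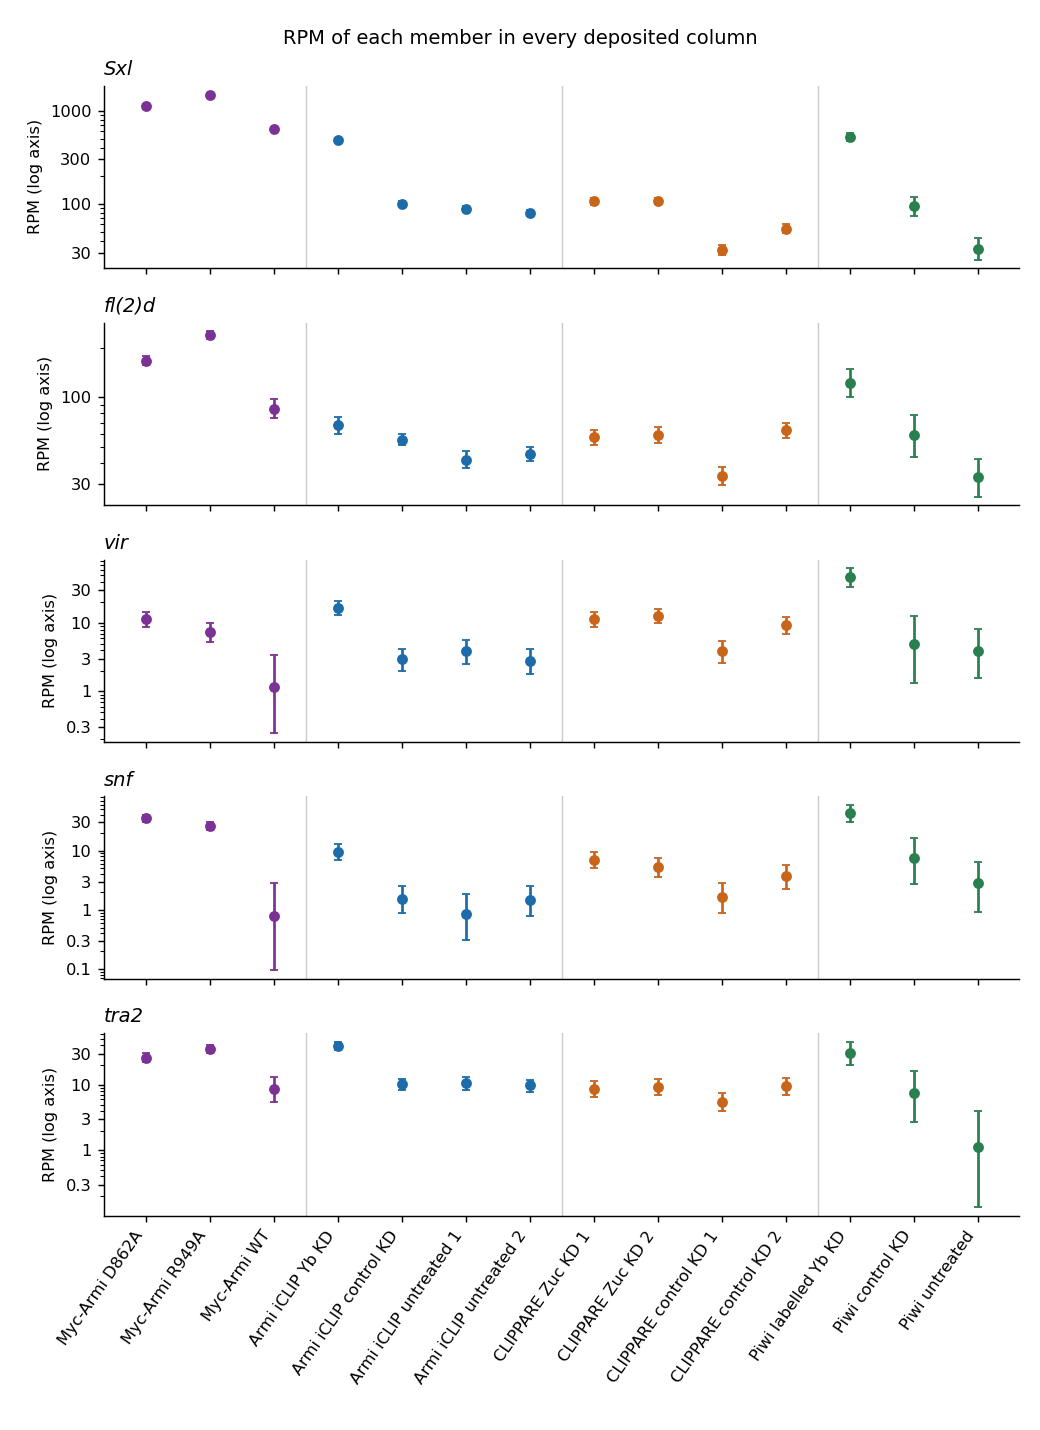
RPM of Sxl, fl(2)d, vir, snf and tra2 (1 panel each, log axes of different range) in the 14 deposited columns, with points for the deposited value and bars for the 95% Poisson interval of its reads. Colours separate Myc-Armi iCLIP, Armi iCLIP, CLIPPARE and Piwi small RNA; Sxl is highest in R949A at 1477 RPM, and the WT values of vir and snf rest on 3 and 2 reads.

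Between the Armi substitutions, all 5 mRNAs differed by less than 2-fold. Sxl was lower in D862A than in R949A, at a ratio of 0.768 (0.744 to 0.793), as were fl(2)d and tra2, while vir and snf were higher in D862A. For fl(2)d the values were 167 RPM in D862A and 240.0 RPM in R949A, a ratio of 0.697 (0.643 to 0.756). For tra2 they were 26.0 and 34.9 RPM, a ratio of 0.744 (0.601 to 0.920). The direction was opposite for vir, at 11.3 RPM in D862A and 7.37 RPM in R949A (1.54, 1.03 to 2.31), and for snf, at 35.2 and 26.5 RPM (1.33, 1.08 to 1.65). None of these intervals includes 1, but they hold no spread between libraries, which these columns do not give.

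Over the 4963 transcripts averaging 5 RPM or more, the median log2 ratio of D862A to R949A was 0.024, and 3.73% lay over 2-fold higher and 1.83% over 2-fold lower. None of the 5 members crossed 2-fold, nor did any relative to the median, where 3.49% of transcripts were over 2-fold higher and 2.04% lower. On the scale of log2(RPM + 1), which understates ratios of low transcripts, Sxl lay at −0.38, with 13.5% of transcripts below it. fl(2)d lay at −0.52 (9.07% below), tra2 at −0.41 (12.03% below), snf at 0.40 (81.2% below) and vir at 0.56 (87.9% below). Only fl(2)d was outside the range that holds the middle 80% of transcripts when ratios are taken relative to the median, which runs from −0.51 to 0.60.

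**Figure D2:**
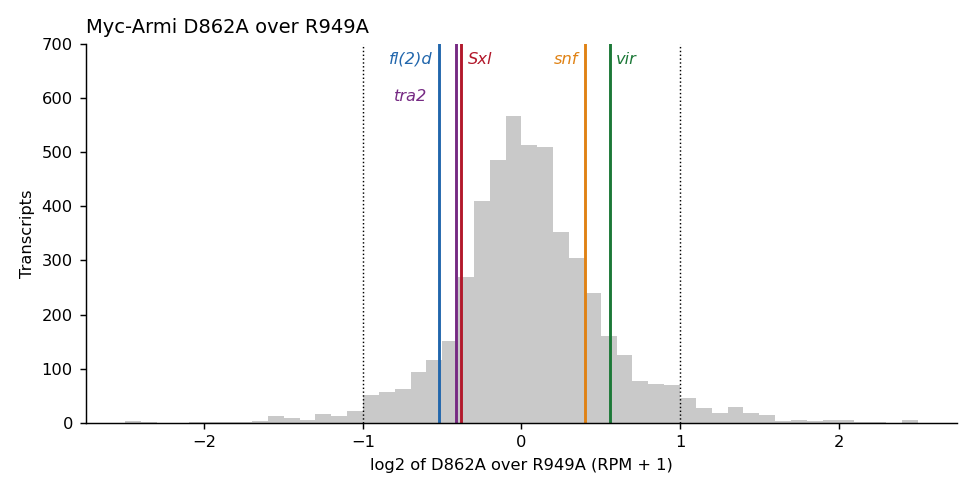
Histogram of the log2 ratio of D862A to R949A, from RPM + 1, over 4963 transcripts averaging 5 RPM or more; ratios beyond 2.5 either way are counted in the outermost bins. Coloured lines mark the members and dotted lines a 2-fold difference; fl(2)d (−0.52), tra2 (−0.41) and Sxl (−0.38) are left of 0, and snf (0.40) and vir (0.56) right of it.

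Against wild-type Myc-Armi, every member had more RPM in both substitutions. Sxl was 1.80-fold higher in D862A (1.71 to 1.91) and 2.35-fold higher in R949A (2.23 to 2.48). The median transcript, though, was 3.31-fold higher in D862A and 3.19-fold higher in R949A, so that Sxl lay below it by 0.87 and 0.44 on the log2 scale. fl(2)d behaved alike: its WT value was 85.7 RPM, it was 1.95-fold higher in D862A (1.69 to 2.27) and 2.80-fold higher in R949A (2.43 to 3.25), and it lay 0.77 and 0.20 below the median. tra2, with 8.64 RPM in WT, was 3.01-fold higher in D862A (1.92 to 4.93) and 4.04-fold higher in R949A (2.59 to 6.59). It was the one member on different sides of the table median, at −0.24 in D862A and 0.22 in R949A.

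snf, the snRNP protein gene, had the largest ratio of the members in both substitutions, but its intervals overlap those of vir. It had 221 reads in D862A and 151 reads in R949A, against 2 reads, or 0.786 RPM, in WT. The ratios were 44.8 (12.3 to 372) and 33.7 (9.17 to 281), and relative to the table median they were 2.62 and 2.27 on the log2 scale. Of all transcripts averaging 5 RPM or more, 97.6% had a smaller ratio in D862A and 95.4% in R949A. vir had 71 and 42 reads in D862A and R949A, against 3 reads, or 1.18 RPM, in WT. Its ratios were 9.60 (3.15 to 47.7) and 6.25 (2.00 to 31.5), which are 2.90 and 1.96 times the median fold. From log2(RPM + 1) it lay 0.77 and 0.27 above the median. Both genes were under 5 RPM in WT and passed a mean of 5 RPM, where they did, only through the columns where they are high. In D862A, 3 of the 5 members were over 2-fold higher as deposited, where 67.6% of 4585 transcripts were, and 4.23% were over 2-fold lower. In R949A all 5 were, where 67.2% of 4473 transcripts were and 4.81% were lower; vir, at a mean below 5 RPM, is not among the 4473. Relative to the median, 26.7% of transcripts were over 2-fold higher and 26.3% lower in D862A, and 26.3% and 25.3% in R949A, and from log2(RPM + 1) snf was the one member over 2-fold. Without the pseudocount vir in D862A was over 2-fold as well. Both comparisons share the WT column.

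Sxl and fl(2)d differed in how far they moved in the Yb KD. Armi signal on Sxl was 4.84-fold higher in Yb KD (4.49 to 5.21), above the median transcript, which was 2.99-fold higher. On fl(2)d it was 67.9 RPM in Yb KD and 55.6 RPM in control KD, 1.22-fold higher (1.06 to 1.41). Relative to the table median, Sxl thus lay at 0.68, with 80.8% of 4039 transcripts below it, and fl(2)d at −1.30, with 15.4% below it.

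The other cofactors lay on the side of Sxl. vir had 16.6 RPM in Yb KD and 2.97 RPM in control KD (5.60-fold higher, 3.64 to 8.81), and snf 9.67 and 1.53 RPM (6.30-fold higher, 3.48 to 11.99). tra2 had 39.4 RPM in Yb KD and 10.3 RPM in control KD (3.84-fold higher, 3.00 to 4.93). These 3 were 0.57, 0.49 and 0.26 above the table median. The control KD values of vir and snf were under 5 RPM, so both passed a mean of 5 RPM only through Yb KD, where they are high. As deposited, 4 of 5 members were over 2-fold higher, where 71.1% of transcripts were and 5.1% were lower. Relative to the median, from log2(RPM + 1), no member was over 2-fold higher (9.51% of transcripts were) and fl(2)d was over 2-fold lower (19.8% were). Without the pseudocount snf was 2.11 times the median fold.

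In Piwi-bound small RNA, fl(2)d was again the lowest of the 5 relative to the table median. In the library labelled Yb KD, Sxl was 5.54-fold higher than in control KD (4.34 to 7.15), where the median transcript was 4.01-fold higher. fl(2)d had 123 RPM in that library and 59.1 RPM in control KD, 2.08-fold higher (1.47 to 3.00). Relative to the table median Sxl lay at 0.45 and fl(2)d at −0.96, with 69.4% and 18.9% of 4924 transcripts below them. vir had 40 reads (46.9 RPM) in the library labelled Yb KD and 4 reads (4.92 RPM) in control KD, a ratio of 9.52 (3.44 to 36.6). snf had 37 reads (43.4 RPM) in the library labelled Yb KD and 6 reads (7.38 RPM) in control KD, a ratio of 5.87 (2.46 to 17.0). tra2 had 26 reads (30.5 RPM) in that library and 6 reads (7.38 RPM) in control KD, a ratio of 4.13 (1.66 to 12.3). Relative to the median these lay at 1.01, 0.40 and −0.096 from log2(RPM + 1), and without the pseudocount tra2 was 1.03 times the median fold. With so few reads in control KD the intervals of vir, snf and tra2 include the median ratio. All 5 were over 2-fold higher as deposited, where 81.8% of transcripts were and 2.23% were lower. Relative to the median vir was just over 2-fold higher (12.5% of transcripts were), and no member was over 2-fold lower (18.2% were). However, vir passed a mean of 5 RPM only through the library labelled Yb KD, where it is high.

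**Figure D3:**
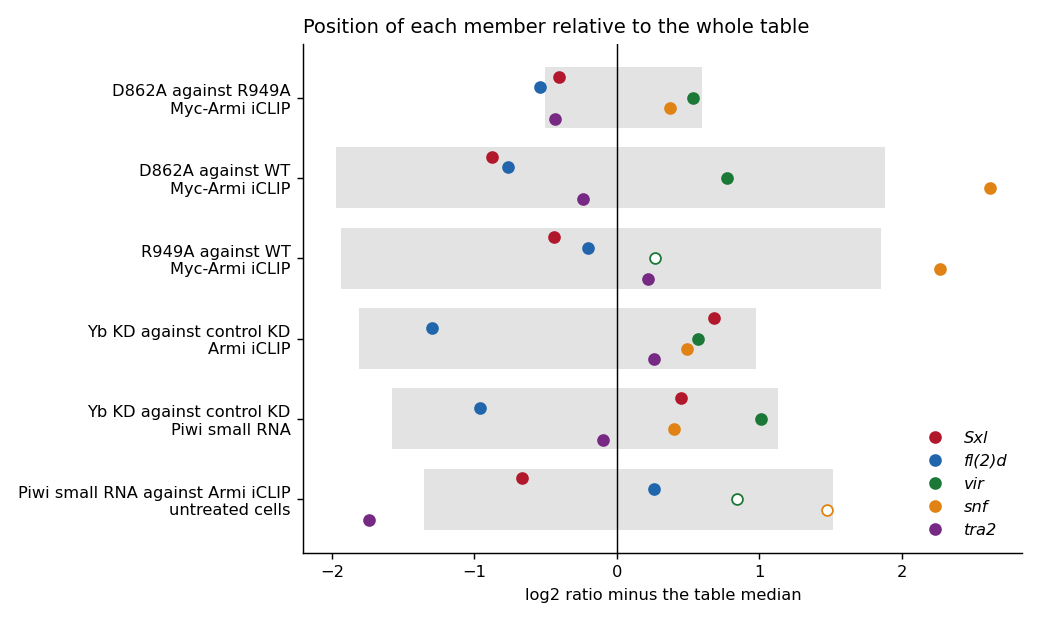
Log2 ratio of each member minus the median of its table in 6 comparisons without replicates in both groups; grey bars span the middle 80% of transcripts averaging 5 RPM or more, and open points are members below that mean. fl(2)d lies left of the other 4 in both Yb KD comparisons (−1.30 and −0.96), and snf lies beyond the grey bar in both comparisons with WT (2.62 and 2.27).

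Within a column, the reads of Sxl per read of fl(2)d do not depend on how that column was scaled, and comparing this ratio between columns of 1 assay cancels transcript length. In Armi iCLIP it was 7.13 (6.31 to 8.06) in Yb KD, 1.80 (1.62 to 2.00) in control KD, and 2.10 and 1.75 in the untreated replicates. The Yb KD value lies outside the intervals of the other 3 columns. In Piwi small RNA the ratio was 4.27 (3.44 to 5.33) in the library labelled Yb KD, 1.604 (1.104 to 2.35) in control KD and 1.00 (0.685 to 1.46) in untreated cells. For Myc-Armi it was 6.78 (6.35 to 7.24) in D862A, 6.16 (5.81 to 6.52) in R949A and 7.34 (6.37 to 8.49) in WT. Per read of fl(2)d, the 3 Myc-Armi columns thus lay close to each other and to the Yb KD column. In CLIPPARE it was 1.84 and 1.80 in Zuc KD, against 0.943 and 0.856 in control KD. The groups did not overlap, and the ratio was 2.03-fold higher in Zuc KD. By an exact permutation test, two-sided, p was 0.333, the smallest that 2 libraries against 2 allow, so this test could not call a difference. Per read of tra2, the Myc-Armi columns did not lie close to Yb KD. Sxl had 72.7 in WT, 43.7 in D862A and 42.3 in R949A, against 12.3 in Yb KD iCLIP. In control KD iCLIP it had 9.76, with an interval that overlaps that of Yb KD, and 8.30 and 8.23 in the untreated replicates. The reads of fl(2)d per tra2 read were 1.73 in Yb KD iCLIP and 5.42 in control KD. In CLIPPARE, Sxl had 12.1 and 11.5 per tra2 read in Zuc KD, against 5.77 and 5.71 in control KD. In Piwi small RNA it had 17.2 (11.6 to 26.7) per tra2 read in the library labelled Yb KD and 12.8 (5.63 to 36.1) in control KD. These ratios were not among the comparisons planned in advance.

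**Figure D4:**
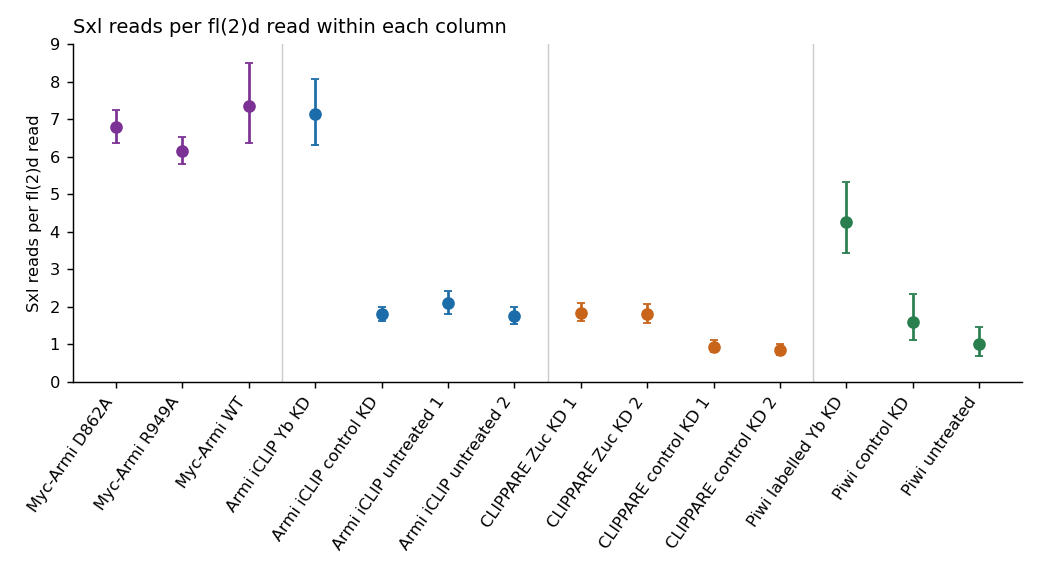
Reads of Sxl per read of fl(2)d within each of the 14 columns, on a linear axis from 0, with 95% exact binomial intervals for counting error. The ratio is 6.16 to 7.34 in the Myc-Armi columns and 7.13 in Yb KD iCLIP, 1.75 to 2.10 in the other Armi iCLIP columns, and 2.03-fold higher in Zuc KD than in control KD CLIPPARE.

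The Zuc KD is the one comparison with replicate columns in both groups, and there Sxl rose. It averaged 106 ± 0.710 RPM in Zuc KD and 42.9 ± 15.9 RPM in control KD (SD, n = 2 each). Both Zuc KD libraries lay above both control libraries, which also held for 47.6% of transcripts tested. The log2 change of Sxl in limma was 1.34 (SE 0.358, p adjusted by Benjamini-Hochberg over all transcripts tested 0.00446), with 96.7% of 4006 transcripts tested below it. Of those transcripts, 11.8% (471) rose and 2.77% (111) fell, with a median change of 0.33; after centring each library on its median, 379 rose and 570 fell. With that centring, the change of Sxl was 1.01 (adjusted p 0.00296), and it passed with edgeR (1.05, adjusted p 0.00161) and DESeq2 (1.00, adjusted p 0.000719) on recovered reads as well. The call was lost without Zuc KD replicate 1 (adjusted p 0.838) or replicate 2 (adjusted p 0.853), although the change was 1.35 and 1.33; without control KD replicate 1 or 2 it was 0.96 and 1.72 and passed. Without the filter on low values the adjusted p was 0.0909. Among the hemocyte markers Pxn, srp and ush rose and crq fell, of 4 tested, and the summed level of the list was 73.9 and 70.2 RPM in Zuc KD, against 56.3 and 87.1 RPM in control KD, with Hml at 0 in both Zuc KD libraries. Of 7 follicle markers zfh1, Fas3 and ct rose and none fell (summed level 2125 and 2330 RPM, against 2220 and 4588 RPM). Of 6 germline markers matched, spn-E alone was tested and did not pass (summed level 113 and 128 RPM, against 115 and 187 RPM). The part of these cell type markers in the result for Sxl was not tested.

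No other member passed. vir had 11.3 and 12.6 RPM in Zuc KD, against 3.84 and 9.30 RPM in control KD, a log2 change of 0.88 (SE 0.354, adjusted p 0.0732). Its groups did not overlap, which held in the same direction for 47.6% of transcripts tested. fl(2)d had 57.5 and 59.4 RPM in Zuc KD, against 33.6 and 63.2 RPM in control KD, with a change of 0.33 (adjusted p 0.535). For tra2 the values were 8.75 and 9.28 RPM in Zuc KD, against 5.50 and 9.49 RPM in control KD, with a change of 0.28 (adjusted p 0.623). In fl(2)d and tra2 the Zuc KD values lay inside the range of the controls, and with each library centred on its median their changes were −0.0015 and −0.056. snf, at 7.03 and 5.25 RPM in Zuc KD and 1.66 and 3.72 RPM in control KD, had a mean below 5 RPM and was not tested. Control KD replicate 1 was the lower control for every member, and it was lower over the table too, with a median log2 difference of −0.47 from replicate 2. Without control KD replicate 2, fl(2)d (0.78, adjusted p 0.00172) and vir (1.42, adjusted p 0.00183) passed in limma. Without control KD replicate 1 they were at −0.11 (adjusted p 0.586) and 0.33 (adjusted p 0.363).

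**Figure D5:**
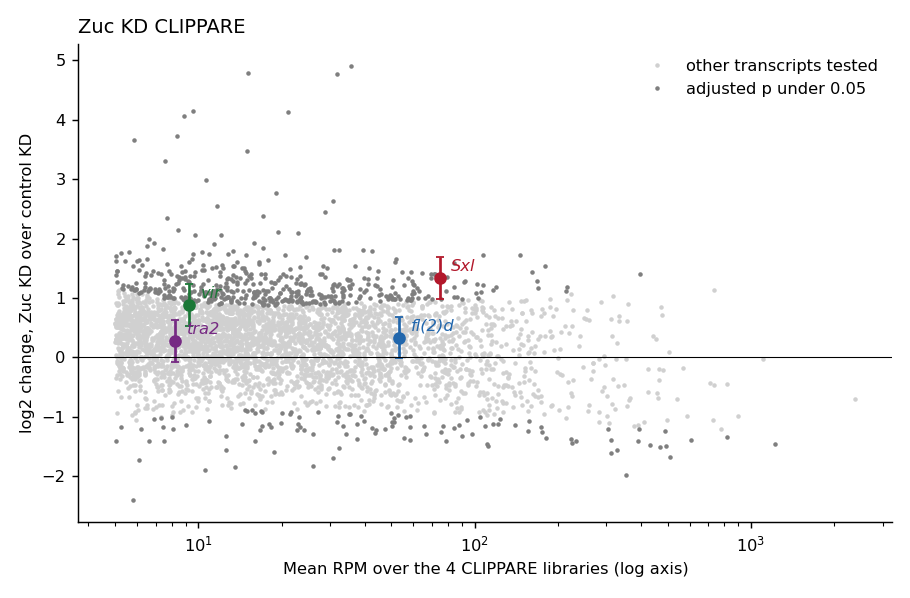
Log2 change of Zuc KD over control KD against mean RPM (log axis) for 4006 transcripts in CLIPPARE, with limma's change and SE for the 4 members tested and dark dots for transcripts with an adjusted p below 0.05. Sxl (1.34) lies among the called transcripts, while vir (0.88), fl(2)d (0.33) and tra2 (0.28) do not pass.

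In untreated cells, Sxl and fl(2)d gave equal Piwi signal, at 59 reads or 33.0 RPM each, and unequal Armi signal. Sxl had 33.0 RPM in Piwi small RNA and 84.2 ± 5.48 RPM in Armi iCLIP (SD, n = 2), a ratio of 0.394 (0.298 to 0.511). fl(2)d had 33.0 RPM in Piwi small RNA and 43.9 ± 2.64 RPM in Armi iCLIP, a ratio of 0.747 (0.563 to 0.975). tra2 had 2 reads in Piwi small RNA, or 1.12 RPM, and 10.2 ± 0.605 RPM in Armi iCLIP, a ratio of 0.110 (0.0132 to 0.405). The median log2 ratio over 3189 transcripts was −0.66, and Sxl and tra2 lay below it by 0.66 and 1.74, while fl(2)d lay 0.26 above it. vir had 3.91 RPM in Piwi small RNA and 3.34 ± 0.755 RPM in Armi iCLIP, and snf 2.79 and 1.16 ± 0.422 RPM. Both had a mean below 5 RPM, and their intervals (0.458 to 2.64 and 0.682 to 6.47) include a ratio of 1. Relative to the median vir lay 0.84 and snf 1.48 above it, and the interval of snf does not include the median fold of 0.631. Of the members, Sxl and tra2 were over 2-fold lower in Piwi small RNA as deposited, where 37.8% of transcripts were and 8.56% were over 2-fold higher. Relative to the median, tra2 was over 2-fold lower (17.3% of transcripts were) and snf, which is not among the 3189, over 2-fold higher (18.5% were). tra2, under 5 RPM in Piwi small RNA, passed a mean of 5 RPM only through Armi iCLIP, where it is high. The authors' piRNA classes, which follow the untreated Piwi library, put Sxl and fl(2)d in Middle and vir, snf and tra2 in Low.

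Over the 14 columns without centring, Pearson's r with Sxl was 0.92 for fl(2)d, 0.81 for tra2, 0.66 for snf and 0.33 for vir. With each column centred on its median log2 value, r was 0.14 for tra2, 0.073 for fl(2)d, −0.048 for snf and −0.73 for vir. The sign for snf and vir thus depended on centring, and the values below are centred. The patterns most like that of Sxl among 4349 transcripts averaging 5 RPM or more were those of Mrtf, a cofactor of the serum response factor (r = 0.98), bun, a TSC-22 family transcription regulator (0.97), gish, a casein kinase (0.97), CG5830 (0.97) and dally, a cell-surface glypican (0.96). Mrtf had 481 RPM in D862A, 554 RPM in R949A and 363 RPM in WT, 195 RPM in Yb KD iCLIP and 38.6 RPM in control KD iCLIP. In CLIPPARE it had 49.6 and 48.0 RPM in Zuc KD, against 15.98 and 28.1 RPM in control KD. Like Sxl, then, it was highest in the Myc-Armi columns and higher in Yb KD and Zuc KD than in their controls. Without centring, Mrtf again ranked first (r = 0.99), and 3 of the 5 most alike were shared. These correlations are descriptions over columns that share libraries, totals and assay.

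Genes that work beside Sxl were read from lists. Of 16 splicing factors that act with Sxl or on the same introns, 15 matched and 14 were tested in CLIPPARE. The gene how, which encodes a STAR-family RNA-binding protein, rose to 85.3 RPM in Zuc KD, against 35.8 RPM in control KD (log2 1.23, limma adjusted p 0.00864). pps, which encodes a protein partner of Snf, rose to 23.4 RPM in Zuc KD, against 12.3 RPM in control KD (0.89, adjusted p 0.0483), and none of the list fell. These 2 of 14 stand beside 11.8% of all transcripts tested that rose and 2.77% that fell. The median change of the 14 was 0.55, beside 0.33 over all transcripts tested. In D862A against R949A the median of the 15 averaging 5 RPM or more was −0.10, with none over 2-fold. In Yb KD iCLIP 12 of 15 were over 2-fold higher as deposited and 1 over 2-fold lower, beside 71.1% and 5.1% of all transcripts. Hrb27C, an hnRNP protein gene and the highest of the list, had 3123 RPM in Yb KD and 1509 RPM in control KD. Some genes named next in this paragraph and in the list paragraphs after it were chosen after their values were seen. These were Psi, Flacc, Ythdc1, Mettl14, Ythdf, tra, msl-1 and msl-2. Psi, a splicing repressor gene, was the one over 2-fold lower, with 239.6 RPM in Yb KD and 669 RPM in control KD.

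Of the m6A writer and reader genes, to which fl(2)d and vir belong by function, 5 of 7 matched and 4 were tested in CLIPPARE. None of the 4 passed, beside 14.5% of all transcripts tested, and their median change was −0.069, beside 0.33. In Yb KD iCLIP the median log2 ratio of the 5 was 0.35, which is 1.23 below the median of the table, with 2 over 2-fold higher and 1 lower, beside 71.1% and 5.1% of all transcripts. nito, a subunit of the writer complex, had 88.9 RPM in Yb KD and 110.1 RPM in control KD, and Flacc, another subunit, had 15.97 RPM in Yb KD and 34.8 RPM in control KD. Ythdc1, a reader, had 50.2 RPM in Yb KD and 5.08 RPM in control KD. Mettl14, a writer subunit, had 8.77 RPM in Yb KD and 2.11 RPM in control KD. These were the 2 over 2-fold higher. Ythdf, another reader, had 82.3 RPM in Yb KD and 64.3 RPM in control KD. In D862A against R949A the median of the 5 was −0.36, with none over 2-fold.

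Of the sex determination cascade, 13 of 14 genes matched and 6 were tested in CLIPPARE. None passed (median 0.65), beside 14.5% of all transcripts tested (median 0.33). dsx, the target of Tra and Tra2, had 1005 RPM in D862A, 969.6 RPM in R949A and 379 RPM in WT, and 512 RPM in Yb KD against 209 RPM in control KD. tra, the splicing target of Sxl, had 3.86 RPM or less in every Armi column. Of dosage compensation genes and translational targets of Sxl, 9 of 10 matched and 7 were tested in CLIPPARE. None was past the threshold (median 0.40), beside the same 14.5% of all transcripts tested. Unr, which acts with Sxl on msl-2 mRNA, had 856 RPM in Yb KD and 629 RPM in control KD. In Yb KD iCLIP 4 of the 7 averaging 5 RPM or more were over 2-fold higher as deposited and 1 over 2-fold lower. Over all transcripts the shares were 71.1% and 5.1%. msl-2 was among the higher, with 39.1 RPM in Yb KD and 15.5 RPM in control KD. The one lower was msl-1, another subunit of the same complex, with 59.4 RPM in Yb KD and 221 RPM in control KD. Of the ELAV-family relatives of Sxl, all 3 matched and elav alone was tested in CLIPPARE (change −0.10, adjusted p 0.870). It had 229 RPM in Yb KD and 144 RPM in control KD. In D862A against R949A the medians of these 3 lists lay between −0.056 and 0.056, with no gene of at least 5 RPM over 2-fold.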

How the data were processed

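The authors deposited 5 tables of RPM (reads per M reads of library total) per FlyBase transcript for 14 columns covering 19 samples. Per the submitters' processing notes, cutadapt, STAR and dm6 were used, with versions and the role of random bases not given in the sources used here. Members and gene lists were chosen with earlier results of these data known. The named genes were the 5 members, the 5 patterns most like Sxl, and of each list the highest by mean RPM and those past the threshold, with exceptions named in the text. After 107 repeated lines were dropped, all RPM steps gave whole reads (100% within 0.1 reads), recovered for intervals and count tests. Ratios have exact conditional binomial intervals. Log2 ratios used a pseudocount of 1 RPM and a mean of at least 5 RPM. Zuc KD was tested with limma 3.58.1 (trend) in R 4.3.3, called at an adjusted p below 0.05, with edgeR 4.0.16 and DESeq2 1.42.0 as alternatives; the test was checked on simulated data. Other alternatives were pseudocounts, filters, centring, a replicate block and leaving out each library. Libraries of one group differed by more than sampling noise.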

Additional observations from a re-analysis of the deposited data

How the results depend on the processing

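Relative to the table median, Sxl was at −0.87 in D862A against WT, −0.44 in R949A against WT, 0.68 in Yb KD iCLIP, 0.45 in Yb KD Piwi small RNA and −0.66 in Piwi against Armi; tra2 turned to −0.24 in D862A against WT and −0.096 in Yb KD Piwi small RNA, and fl(2)d to −0.77 in D862A against WT, −0.20 in R949A against WT, −1.30 in Yb KD iCLIP, −0.96 in Yb KD Piwi small RNA and 0.26 in Piwi against Armi. These turns follow from subtracting the median. In Zuc KD by limma, the change of Sxl was 1.34 with no filter (adjusted p 0.0909), and 0.96 to 1.72 when each library was left out, with the call lost without Zuc KD replicate 1 (1.35) or 2 (1.33). fl(2)d turned to −0.0015 with centring, −0.11 without control KD replicate 1 and −0.025 in DESeq2, and tra2 to −0.056, −0.067 and −0.038; the cause was not tested. When each library was left out they ran from −0.11 to 0.78 and from −0.067 to 0.62, and vir from 0.33 to 1.42. snf, not tested otherwise, was at 1.00 with no filter (adjusted p 0.239). The labels do not say whether replicate numbers pair the libraries, and 2 pairs are too few to tell (correlation of deviations 0.049). With a replicate block in limma Sxl was at 1.34 (adjusted p 0.0118), 545 transcripts were called and no member's call changed. Against 582 transcripts called, 45 were called with no filter, 211 at a mean of at least 20 RPM, fewer rose and more fell with centring (379 and 570, against 471 and 111), 1001 were called by edgeR (452 higher, 549 lower) and 669 by DESeq2 (233 higher, 436 lower), and 17 to 1968 when each library was left out. Over 2-fold higher in D862A against R949A were 185 transcripts, 486 with no filter, 17 at 20 RPM and 63 with a pseudocount of 5 RPM; lower were 91, 378, 7 and 27. Depth limits vir and snf in WT (3 and 2 reads) and tra2 in Piwi small RNA (2 reads).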
